A study of Mus musculus with 5 samples.

Results

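The control library of this mouse trachea series held a set of cells whose transcripts mapped to the human genome. A cell was counted as human-mapped when more than 50% of all its UMIs (unique molecular identifiers, each standing for 1 captured transcript) fell on features of the human reference. The members were thus chosen by a measured value, their own human share of UMIs, so that share is given as a description with no test. They numbered 192 of the 808 cells of the control library (23.8%) and 192 of the 6832 cells of the 5 libraries. No cell of the other 4 libraries passed the rule. The human-mapped cells are not part of the mouse trachea, and the labels do not say where they came from.

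The study was made in adult wild-type mice of the strain 129 X1/S1. Recipients were given 2% polidocanol into the trachea, a detergent that strips the surface epithelium, followed by basal cells made from mouse embryonic stem cells (iBCs). Their tracheas were collected 40 or 56 days later and sorted as live cells into donor-derived (GFP+) and endogenous (GFP-) libraries. The control was 1 mouse that had neither the injury nor the graft, whose trachea cells were sorted for Calcein Blue, a dye of living cells, into 1 library. All values below come from that 1 library. There was therefore no replicate, and no comparison between conditions or test was possible.

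Cells of a given type can be recognised by the transcripts they keep on: keratins and adhesion proteins in epithelia, vimentin and collagens in mesenchyme, and a small set of regulators and products specific to each organ. Dividing cells add waves of transcripts to this. Replication enzymes and the MCM helicase appear around the start of DNA synthesis, histones of the clustered genes during it, and cyclin B1, Aurora kinases and spindle proteins before and during mitosis. Most cells of a resting adult trachea do not divide and lack these waves.

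The human share separated the 2 sets of cells without any intermediate. The human-mapped cell closest to the threshold had 63.2% human UMIs, and the mouse-mapped cell closest to it had 0.538%. The median share was 99.2% in the members, with the highest at 99.8%, and 0.127% in the 616 mouse-mapped cells. In 15 of the 192 members the human share was 90% or less. The human-mapped cells were also the deeper ones. Their median total was 44005.5 UMIs per cell against 10438 in the mouse-mapped cells, 4.22 times as many. With 8926530 human UMIs they held 53.8% of all UMIs of the control library.

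**Figure D1:**
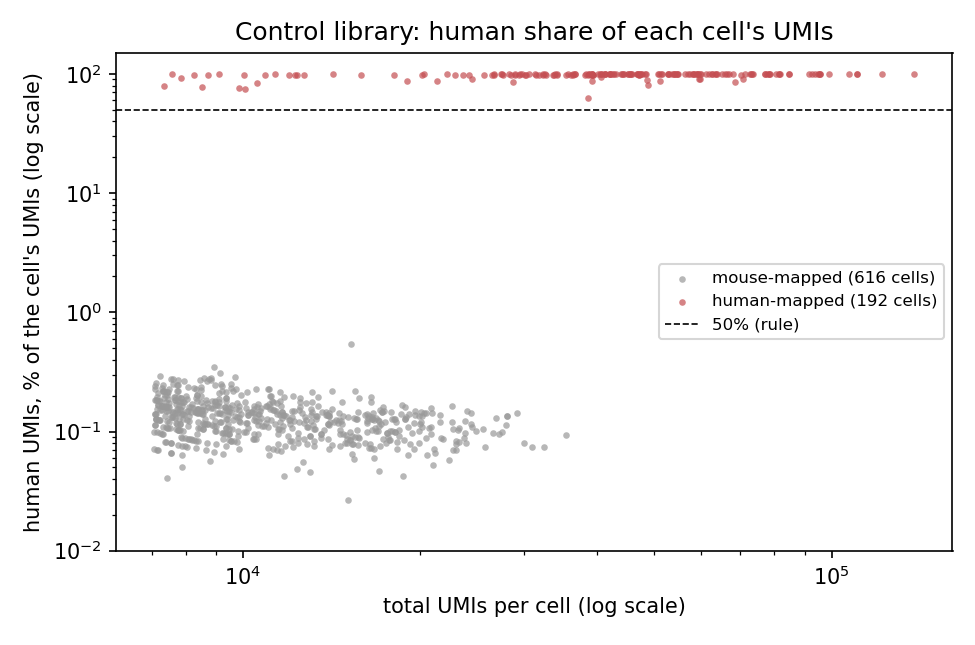
Each point is 1 of the 808 cells of the control library, with its total UMIs on the horizontal axis and the human share of those UMIs on the vertical axis, both on log scales. The 192 human-mapped cells lie between 63.2% and 99.8%, and the 616 mouse-mapped cells lie at or below 0.538%.

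Depth varied widely among the members. Human UMIs per cell ran from 5808 to 137931 with a median of 43164, and human genes per cell from 133 to 10743 with a median of 7002. Mitochondrially encoded transcripts made up a median of 8.96% of a member's human UMIs and ribosomal protein transcripts a median of 22.5%. In 16 members the mitochondrial share was above 20%, and it reached 98.6%. Of these, 5 had fewer than 500 human genes. These 16 stayed among the members for summed levels but were left out of the clustering and of the values per cell, which rest on the other 176 cells. None of the members' cell barcodes occurred in another library.

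In all, 21880 of the 58395 human features had at least 1 UMI in the members. Levels are given as CPM, the count scaled to 1000000 human UMIs, summed over the 192 members, with exact Poisson 95% intervals. The intervals cover counting error only. A gene is called present at 50 CPM or more. By this rule 2986 features were present, 5.11% of all human features and 13.6% of those with a UMI. The median level was 0 CPM over all human features and 3.92 CPM over those with a UMI. UMIs were not divided by transcript length, so levels of different genes are shares of captured transcripts.

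The 15 genes with the most UMIs, mitochondrial and ribosomal protein genes aside, are given here by what they are known to do. EEF1A1, the elongation factor that brings tRNA to the ribosome, stood at 6373 CPM. PTMA, an acidic nuclear protein abundant in dividing cells, stood at 4867 CPM. MALAT1, a nuclear long noncoding RNA, followed with 3962 CPM, and the ribosome scaffold RACK1 with 3676 CPM. Chromatin is represented by the histone H4 gene HIST1H4C at 2753 CPM and the histone variant H2AFZ at 1687 CPM. Chaperones and translation partners included HSP90AA1 at 2584 CPM, NACA at 2506 CPM, NPM1 at 2321 CPM, TPT1 at 2190 CPM, HSP90AB1 at 1696 CPM and BTF3 at 1688 CPM. The remaining members of the set are metabolic or structural: actin ACTG1 at 2771 CPM, GAPDH at 1792 CPM and CKB at 2066 CPM.

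CKB (ENSG00000166165) is the creatine kinase of the brain type, which buffers ATP in cells with a high energy demand. Its summed level had an interval of 2036 to 2096 CPM. Every one of the 176 cells held CKB transcripts, with levels from 418.5 to 3890 CPM and a median of 2104 CPM. It was thus a general feature of these cells. Of the mouse-mapped cells, 3.57% held a CKB UMI, at a median of 14 human UMIs per cell against 45088.5 in the 176 cells. Cells were divided by their human UMIs, so this contrast was fixed by the rule and is no evidence about the gene. The same holds for every share of mouse-mapped cells given below for human genes.

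The identity of the cells was examined with 31 lists of cell type markers. For 21 of the lists no marker was present, and for 6 lists 1 marker was. Of 13 markers of general epithelium 3 were present (23.1%), and 2 markers each of the lists for prostate and breast epithelium, mesenchyme and pluripotent stem cells. The background for these counts is 5.11% of all human features and 13.6% of those with a UMI. The counts for mesenchyme (14.3%) and pluripotent stem cells (12.5%) lie near the latter. At this level no list had more than 23.1% of its markers present, and the cells were given no cell type name.

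**Figure D2:**
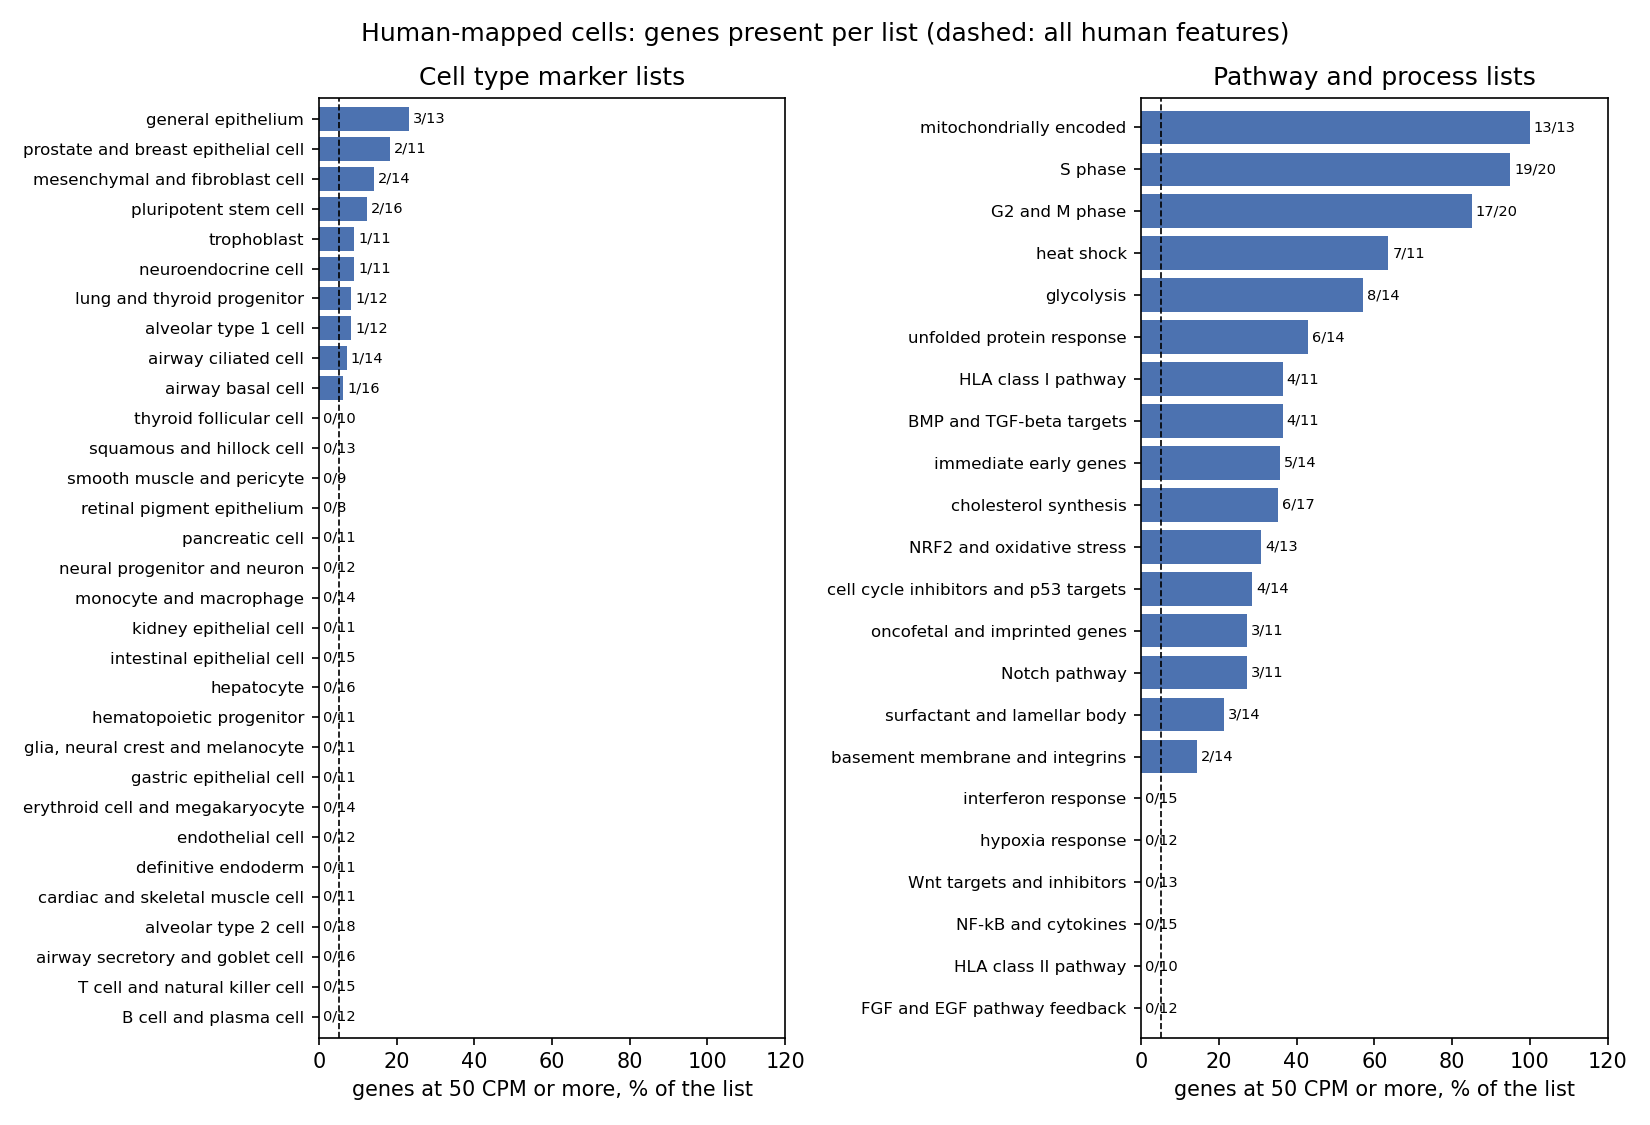
Bars show the share of each list's measured genes at 50 CPM or more in the 192 human-mapped cells, with the counts beside each bar, for 31 cell type lists (left) and 22 process lists (right). The dashed line marks the 5.11% of all human features at that level. No bar on the left is longer than 23.1%, whereas 19 of 20 S phase genes and 17 of 20 G2 and M phase genes are present.

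At 50 CPM, the list with the largest share after general epithelium was that of prostate and breast epithelial cells, with 2 of 11 present (18.2%). This order turned when mitochondrial and ribosomal protein genes were left out of the scaling, where the alveolar type 1 list led, and at 10 CPM, where that list and the lung and thyroid progenitor list led together. The 2 present markers of the prostate and breast list were keratins that many simple epithelia share, KRT8 at 395 CPM and KRT19 at 103 CPM. The markers that define prostate or breast were low or without a UMI. GATA3 stood at 8.85 CPM, the progesterone receptor PGR at 1.01 CPM and the estrogen receptor ESR1 at 0.112 CPM. The prostate proteases KLK3 and KLK2, the acid phosphatase ACPP and TFF1 had 0 UMIs, where 3 UMIs over all members would have been 0.336 CPM.

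The 3 epithelial markers present were all keratins of the simple type. KRT8 (ENSG00000170421) and its partner KRT18 (ENSG00000111057) form the intermediate filaments of single-layered epithelia. KRT8 had an interval of 382 to 408 CPM, and KRT18 stood at 309 CPM (interval 297 to 321 CPM). Per cell, KRT8 ran from 0 to 1348 CPM with a median of 337.5 CPM, and KRT18 from 0 to 1166 CPM with a median of 278.5 CPM. Both transcripts were found together in 171 of 176 cells (97.2%, exact Clopper-Pearson 95% interval 93.5% to 99.1%). This interval, like those of the other shares of cells below, treats cells as independent draws. It holds no spread between animals or libraries. In the mouse-mapped cells, 1.14% held a KRT8 UMI and 0.487% a KRT18 UMI. Adhesion and junction genes of epithelia were below the level of presence. EPCAM stood at 35.85 CPM and CD24 at 29.4 CPM, while E-cadherin CDH1 was at 1.57 CPM. The junction genes CLDN3 and CLDN7 were at 8.29 CPM and 1.68 CPM, and the splicing regulator ESRP1 was at 2.02 CPM. KRT7, CLDN4 and the epithelial regulator GRHL2 had 0 UMIs.

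The same cells carried VIM (ENSG00000026025), the filament protein of mesenchymal cells, at 1582 CPM (interval 1556 to 1608 CPM). Its level per cell ran from 0 to 4939 CPM with a median of 1374 CPM, and 99.4% of the 176 cells held a UMI against 3.25% of the mouse-mapped cells. Each of the 171 cells with both keratins also held VIM. Fibronectin FN1, at 70.5 CPM, was the other present mesenchymal marker of 14. TWIST1 was at 27.2 CPM and collagen COL1A1 at 4.26 CPM, and COL1A2, DCN, PDGFRB and THY1 had 0 UMIs. N-cadherin CDH2, which joins neural and mesenchymal cells, was at 110 CPM and was found in 94.3% of the 176 cells.

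Lists of the airway and lung had at most 1 marker present at 50 CPM. In the basal cell list DST, a linker of the cytoskeleton found in many cell types, was the 1 present marker of 16, at 115 CPM. The defining basal genes TP63, KRT5, KRT15 and KRT14 had 0 UMIs. The ciliated list had 1 of 14 present, the tubulin TUBA1A at 157 CPM, with 0 UMIs of the master regulator FOXJ1. No secretory marker of 16 was present, and SCGB1A1, SCGB3A1, BPIFA1, MUC5AC and MUC5B had 0 UMIs. The alveolar lists had EMP2 at 60.05 CPM as the 1 present marker of 12 for type 1 cells and none of 18 for type 2 cells, with SFTPC, SFTPB and SFTPA1 at 0 UMIs. The type 1 count moved with the settings, to 4 of 12 when mitochondrial and ribosomal protein genes were left out of the scaling and to 5 of 12 at a level of 10 CPM. The 3 genes that joined EMP2 in the first case were CAV1 at 48.4 CPM, GPRC5A at 39.0 CPM and RTKN2 at 33.8 CPM on the main scale, while AGER was at 1.23 CPM and AQP5 had 0 UMIs. NKX2-1, the regulator of the lung and thyroid fate, was at 1.46 CPM, and ID2 at 231 CPM was the 1 present gene of 12 in the progenitor list, which had 5 of 12 at 10 CPM.

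Pluripotency genes were equally sparse. TERF1, a telomere protein, was at 91.0 CPM and LIN28B, which blocks maturation of let-7 microRNAs, at 55.9 CPM, and these were the 2 present of 16. POU5F1, NANOG and LIN28A, which define the pluripotent state, had 0 UMIs, and SOX2 was at 19.7 CPM. For neuroendocrine cells PCSK1N at 80.8 CPM was the 1 present marker of 11, with NEUROD1 and SCG2 at 0 UMIs. For trophoblast it was TFAP2A, an AP-2 transcription factor of early ectoderm, at 141 CPM, with CGB3, ELF5 and KRT7 at 0 UMIs.

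Lists of blood and vessel lineages were without a present marker, which in lists this short is near the 5.11% of all human features. No marker was present of 15 for T and natural killer cells, 14 for monocytes and macrophages, 12 for B and plasma cells, 12 for endothelium or 11 for hematopoietic progenitors. PTPRC, the surface marker of all leukocytes, CD34, PECAM1, CD3D, MS4A1, LYZ and HBB had 0 UMIs. The hepatocyte, intestinal, gastric, pancreatic, thyroid, kidney, muscle, neural, glial and retinal lists likewise had no present marker. Among their defining genes ALB, HNF4A, INS, TG, UMOD, CDH16, TNNT2, MYOD1, DCX and SOX10 had 0 UMIs. Below the level of presence, XBP1 of the B and plasma cell list was at 45.15 CPM and TFRC of the erythroid list at 46.9 CPM, both genes used in many cell types. NKX2-5 of the muscle list was at 34.4 CPM.

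Several gene families were then read by symbol, a choice made after their values had been seen. Of 39 measured HOX genes, which set position along the body axis, 4 were present (10.3%). For this and the next counts of families the background is again 5.11% of all human features and 13.6% of those with a UMI, and several counts lie near it. These 4 were HOXA10 at 168 CPM, HOXB9 at 70.0 CPM, HOXA9 at 55.7 CPM and HOXB7 at 55 CPM. HOXA10 was found in 98.9% of the 176 cells. Of 19 SOX factors 2 were present, SOX4 at 559.8 CPM, found in all 176 cells, and SOX11 at 217 CPM. Both are factors of progenitor cells in many embryonic tissues. Among 44 forkhead factors FOXC1 was at 160 CPM, FOXP1 at 70.8 CPM, FOXD1 at 59.3 CPM and FOXM1, which drives mitotic genes, at 54.8 CPM. None of the 6 GATA factors or 9 PAX factors was present.

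Structural families differed in how many members were present. None of 44 collagens and none of 24 claudins was present, and their highest members were COL4A2 at 44.6 CPM and CLDN10 at 8.85 CPM. Of 66 keratins 4 were present, the fourth being KRT10 at 319.6 CPM. Of 13 other intermediate filament genes 6 were present, among them the nuclear lamins LMNB1 at 106 CPM, LMNB2 at 69.2 CPM and LMNA at 64.4 CPM. Of 14 BEX and TCEAL genes, small X-linked genes known best from neural tissue, 8 were present (57.1%), led by BEX3 at 446 CPM, TCEAL4 at 191 CPM and BEX1 at 188 CPM. Of 11 HMG proteins, which bend or loosen chromatin, 8 were present (72.7%), led by HMGN2 at 1268 CPM and HMGB1 at 971.5 CPM.

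Signalling lists differed in how many genes were present. For these and the other process lists below, the background is 5.11% of all human features and 13.6% of those with a UMI. Some counts lie near it. In the Notch list 3 of 11 genes were present: HES4 at 527 CPM, HES1 at 139 CPM and HEY1 at 106 CPM, all of them repressors that Notch can switch on. HES4 (ENSG00000188290) was found in all 176 cells, with levels from 67.7 to 1306 CPM and a median of 513 CPM, and in 1.62% of the mouse-mapped cells. The receptors NOTCH2 and NOTCH1 were at 22.0 CPM and 3.25 CPM, and DLK1 had 0 UMIs. In the BMP and TGF-beta list 4 of 11 measured genes were present, of which 3 were inhibitors of basic helix-loop-helix factors, ID3 at 521 CPM, ID2 at 231 CPM and ID1 at 202 CPM. The fourth was SKIL at 60.7 CPM. No gene was present of 13 in the Wnt list, 12 in the FGF and EGF feedback list, 15 in the interferon list, 15 in the NF-kB and cytokine list, 12 in the hypoxia list or 10 in the HLA class II list.

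The HLA class I pathway presents peptides on the surface of most nucleated cells, and 4 of its 11 genes were present, among them HLA-C at 231 CPM, B2M at 99.0 CPM and HLA-B at 76.4 CPM. The interferon-induced parts of that pathway were low, with TAP1 at 8.07 CPM and PSMB8 at 0.224 CPM. Oncofetal and imprinted genes had 3 of 11 present, PEG10 at 185 CPM, IGF2BP1 at 134 CPM and LIN28B. AFP and IGF2 were each at 0.112 CPM, and H19 had 0 UMIs.

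Metabolic and stress lists also differed, beside the hypoxia list without a present gene. In glycolysis 8 of 14 genes were present, with GAPDH followed by ENO1 at 1114 CPM, TPI1 at 815 CPM and LDHA at 674 CPM. In cholesterol synthesis it was 6 of 17, led by FDPS at 259 CPM, IDI1 at 134 CPM, SQLE at 119 CPM and FDFT1 at 69.5 CPM. In the oxidative stress list it was 4 of 13, the ferritins FTL at 909 CPM and FTH1 at 784 CPM, and TXN at 602 CPM and TXNRD1 at 107 CPM. The iron and redox carriers in this list are abundant in most cells, and the inducible members NQO1 and HMOX1 were at 4.71 CPM and 3.81 CPM.

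The unfolded protein response had 6 of 14 genes present, led by the resident chaperones HSP90B1 at 590 CPM, CALR at 556 CPM, HSPA5 at 194 CPM and SDF2L1 at 194 CPM. DDIT3, the factor of prolonged stress, was at 7.62 CPM. Heat shock genes had 7 of 11 present, among them HSPD1 at 1120 CPM, HSPE1 at 744 CPM and HSPA1A at 588 CPM. HSPA1A and HSPA1B are near-identical copies, so the split of UMIs between them is uncertain. Of the immediate early genes 5 of 14 were present, DUSP1 at 184.5 CPM, JUN at 170 CPM, JUND at 131 CPM, IER2 at 90.2 CPM and MYC at 58.6 CPM, with FOS at 4.82 CPM. In the surfactant and lamellar body list 3 of 14 were present, FASN at 127 CPM, NPC2 at 112 CPM and PEPD at 77.9 CPM, which are used in many tissues. In the basement membrane list it was 2 of 14 (14.3%), ITGB1 at 155.5 CPM and FN1, near the 13.6% of all features with a UMI. All 13 mitochondrially encoded genes were present, led by MT-CO3 at 10600 CPM, MT-CO2 at 10220 CPM, MT-ATP6 at 10010 CPM and MT-CO1 at 7816 CPM.

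The lists with the largest shares present, beside the mitochondrial one, were those of the cell cycle. Of 20 S phase genes 19 were present, with a median of 134 CPM over the list against 3.92 CPM over all human features with a UMI. HELLS, a chromatin remodeller, was at 282 CPM, the replication clamp PCNA at 274 CPM, TYMS at 243 CPM and MCM3 at 227 CPM. The gene below the level of presence was CCNE2 at 24.9 CPM. Of 20 G2 and M phase genes 17 were present, with a median of 142 CPM. HMGB2 was at 576.5 CPM, topoisomerase TOP2A at 468 CPM, CENPF at 468 CPM and cyclin B1 CCNB1 at 259.5 CPM.

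Inhibitors of the cycle and p53 targets were uneven in level. In the list of cell cycle inhibitors and p53 targets 4 of 14 genes were present: CDKN2A at 552 CPM, BAX at 173 CPM, CDKN2C at 78.0 CPM and MDM2 at 77.9 CPM. CDKN2A (ENSG00000147889) encodes p16 and ARF, which restrain the cycle through RB and p53. It was found in all 176 cells, from 155 to 1415 CPM with a median of 553 CPM, and in 0.812% of the mouse-mapped cells. The p53 target CDKN1A, which encodes p21, was at 9.41 CPM and GDF15 at 0.112 CPM. Of the cyclins, CCNA2 was at 81.1 CPM and CCND1 at 57.7 CPM.

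**Figure D3:**
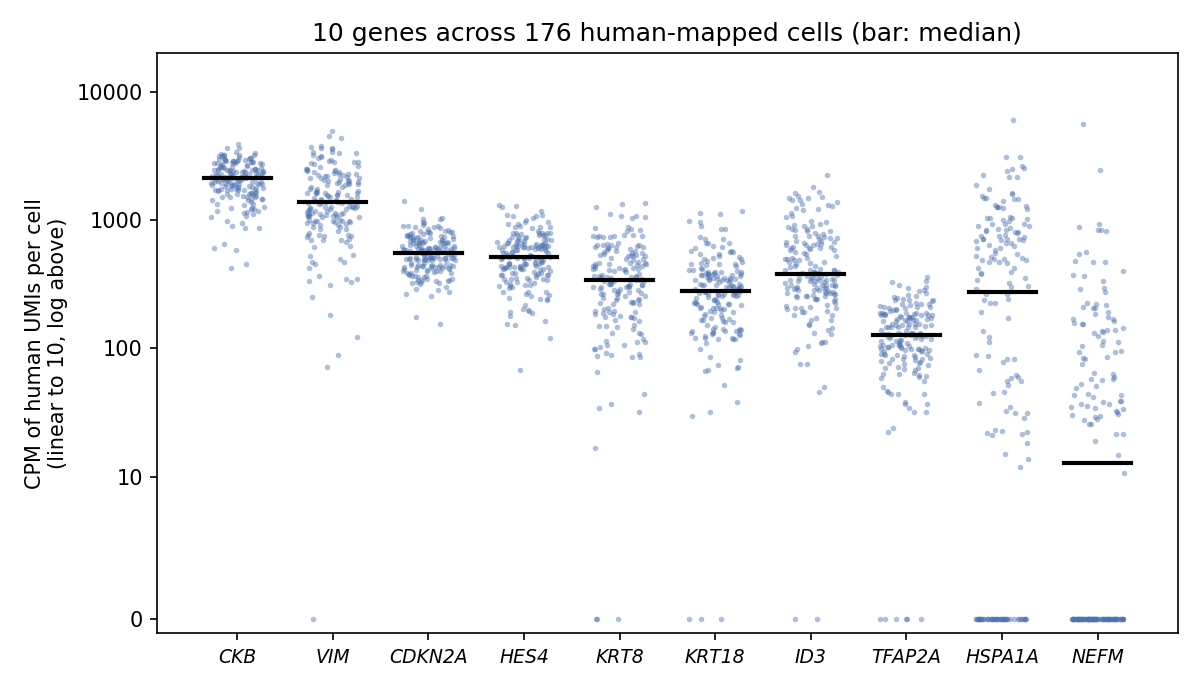
Each point is the level of a gene in 1 of the 176 human-mapped cells with enough genes and few mitochondrial UMIs, in CPM of that cell's human UMIs, and the bar is the median. CKB, CDKN2A and HES4 have a UMI in all 176 cells, whereas NEFM is at 0 in nearly as many cells as it is found in (89 of 176).

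The cycle transcripts were spread over nearly all members. Each cell was thinned to 10000 human UMIs so that depth was equal, which left out 11 shallower members. Of the 181 others, 179 (98.9%, interval 96.1% to 99.9%) had UMIs of at least 3 S phase genes, and 175 (96.7%, interval 92.9% to 98.8%) of at least 3 G2 and M phase genes. Without thinning the shares were 96.4% and 95.3% of all 192 members. The median cell held 25 UMIs of the S phase list and 28 of the G2 and M phase list among its 10000.

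The mouse-mapped cells of the same library, read with the mouse genes of the same symbols and thinned in the same way, had far fewer. Of the 325 with enough UMIs (291 were shallower), 14 (4.31%, interval 2.38% to 7.12%) had at least 3 S phase genes and 4 (1.23%, interval 0.336% to 3.12%) at least 3 G2 and M phase genes. Their median was 0 UMIs for either list. Without thinning the shares were 7.95% and 2.11% of 616. The 2 sets are of different species and were read with different gene models, so the contrast is a description of this library. Of human UMIs of these lists, 5.03% of the mouse-mapped cells held at least 1 from the S phase list and 3.57% at least 1 from the G2 and M phase list.

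The 176 cells with at least 500 human genes and at most 20% mitochondrial UMIs fell into 4 clusters. The clusters were made from the 1000 most variable human genes of these cells, mitochondrial, ribosomal protein and excluded genes aside, so their leading genes describe how they were divided and are no test. Cluster 3, with 31 cells, was led by genes of the start of replication. MCM6, a helicase subunit, had a mean of 181 CPM in it against 60.6 CPM in the other cells, and CCNE2, the cyclin of entry into S phase, 61.5 against 17.2 CPM. DTL, UHRF1, WDR76, ZNF711, the mismatch repair gene MSH6 and the uracil glycosylase UNG completed its 8 leading genes.

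Cluster 1, with 48 cells, was led by clustered histone genes in all 8 places. HIST1H1D had a mean of 559 CPM in it against 14.8 CPM elsewhere, a ratio of 22.9 after adding 10 CPM to both. HIST1H4C had 8484 against 996 CPM. The others were HIST1H1B, HIST1H2AG, HIST2H2AC, HIST1H1E, HIST1H3B and HIST1H2AH. Coding sequences of such histone genes are alike, so the split of UMIs between individual genes is uncertain. Cluster 2, with 37 cells, was led by mitotic genes. The ubiquitin ligase partner UBE2C had a mean of 544 against 83.9 CPM, the mitotic kinase AURKA 297 against 42.9 CPM and PLK1 233 against 36.85 CPM. CENPE, CCNB1, HMMR, ASPM and CENPA followed.

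Cluster 0, the largest with 60 cells, had no gene that set it apart as far. Of its leading genes given here HSPA1A had a ratio of 1.71, at a mean of 764 against 444 CPM. It was followed by HIST3H2A at 109 against 61.2 CPM, PNPLA4, the securin PTTG1 at 506 against 325 CPM, SNRPA, JUN and the cycle inhibitor CDKN2B at 64.6 against 40.5 CPM. PTTG1 was higher still in cluster 2, with a mean of 605 CPM. Median depth was 38866.5 human UMIs in cluster 0, 46593.5 in cluster 1, 58956 in cluster 2 and 44777 in cluster 3.

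Set against the lists, the clusters occupied different parts of the cycle genes. The S phase genes summed to a median of 4340 CPM per cell in cluster 3, 3516 CPM in cluster 1, 2402 CPM in cluster 0 and 1040 CPM in cluster 2. For the G2 and M phase genes the order was another one, with 7687 CPM in cluster 2, 3359 CPM in cluster 1, 1914 CPM in cluster 0 and 1160 CPM in cluster 3. The clustered histone genes summed to a median of 13100 CPM in cluster 1, against 861 CPM in cluster 0, 694 CPM in cluster 3 and 369 CPM in cluster 2. The ranges of clusters 2 and 3 did not overlap for the G2 and M phase sum, which ran from 5019 to 15310 CPM in cluster 2 and from 614.5 to 2618 CPM in cluster 3. These lists were among the genes used to cluster, and the order is a description.

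**Figure D4:**
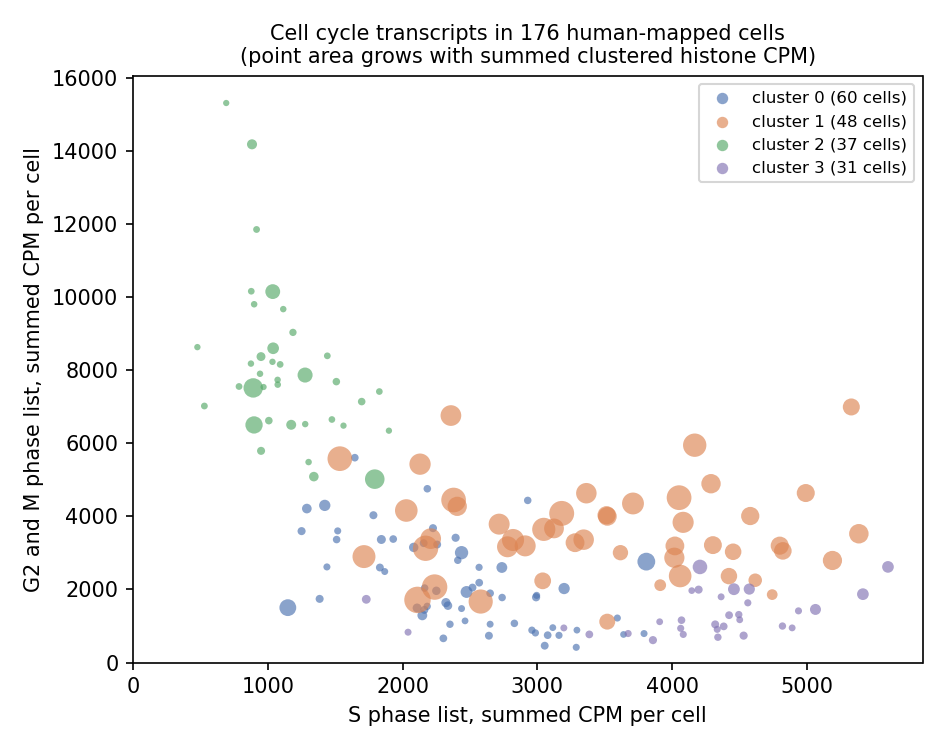
Each point is 1 of 176 human-mapped cells, with the summed CPM of the 20 S phase genes on the horizontal axis and of the 20 G2 and M phase genes on the vertical axis, colour for the cluster and point area growing with the summed CPM of clustered histone genes. Cluster 3 lies at high S phase and low G2 and M phase sums, cluster 1 holds most of the large points, with a few in clusters 0 and 2, and cluster 2 lies at 5019 CPM or more on the vertical axis.

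When the genes of both cycle lists were left out, 4 clusters were found again, of which the largest had 56 cells and was led by HIST1H1D, and another of 38 cells was led by AURKA and UBE2C. When the clustered histone genes were left out too, an alternative chosen after seeing the data, 3 clusters of 74, 58 and 44 cells were found. Their leading genes were CDCA7, HIST1H1D and AURKA, in that order. Other genes of the cycle remained in the clustering, so this does not remove the cycle from it.

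CKB and CDKN2A, found in all 176 cells, were much alike across clusters. CKB had means of 2070, 2236, 2072 and 1968 CPM in clusters 0 to 3, and CDKN2A 590.5, 587, 561 and 523 CPM. TFAP2A, at 129, 124, 163 and 129.5 CPM, and HES4, at 522, 617, 459.5 and 576.5 CPM, differed somewhat more. The keratins and vimentin varied more, with KRT8 between 286 CPM in cluster 1 and 453 CPM in cluster 2, and VIM between 1292 CPM in cluster 2 and 1832 CPM in cluster 0. In 168 of 176 cells (95.5%, interval 91.2% to 98.0%) KRT8, KRT18, VIM, CKB, HES4, CDKN2A and TFAP2A were all found.

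Variation beyond counting noise was read from the ratio of variance to mean over cells thinned to 10000 human UMIs, which is about 1 when cells differ by counting alone. Of 2931 genes with a mean of at least 0.5 UMI, 447 (15.3%) had a ratio of 1.5 or more over 181 members, and the median ratio was 1.17. Among the 171 of these cells that also passed the limits for clustering it was 348 of 2984 genes (11.7%). The 15 largest ratios over the 181 members included 11 mitochondrially encoded genes, led by MT-RNR2 at 1123, MT-RNR1 at 392, MT-ATP6 at 76.4, MT-CO2 at 58.8 and MT-CO3 at 56.5. MT-CYB, MT-CO1, MT-ND3, MT-ND4, MT-ND1 and MT-ND2 had ratios between 45.1 and 10.1. Without the members of high mitochondrial share the ratio of MT-RNR2 was 51.4.

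The other genes of that set were HIST1H4C, NEFM, MALAT1 and HSPA1A. HIST1H4C had a ratio of 53.4 over the 181 members and 52.1 in the 171 cells. Its levels ran from 0 to 15840 CPM per cell with a median of 628 CPM, and its mean was highest in cluster 1. MALAT1 had ratios of 22.1 and 18.8, and HSPA1A 12.1 and 11.5. HSPA1A (ENSG00000204389), the inducible heat shock protein of the HSP70 family, ran from 0 to 5995 CPM with a median of 276.5 CPM and was found in 73.3% of the 176 cells, against 0.812% of the mouse-mapped cells. Its 10 highest cells held 27.7% of its UMIs.

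NEFM (ENSG00000104722), the medium neurofilament subunit of neurons, had ratios of 22.2 and 20.1, the largest of the named genes with a mean under 10 UMIs. Its level ran from 0 to 5633 CPM with a median of 12.7 CPM, and 89 of 176 cells (50.6%) held a UMI. None of the 616 mouse-mapped cells did, but these held only 9584 human UMIs in all, too few to read an absence from. The 10 cells with the highest level held 812 of its 1324 UMIs (61.3%). Without these 10 the summed level dropped from 152 to 62.9 CPM, so its summed level rests on few cells. They were spread over the clusters, with 3, 2, 4 and 1 in clusters 0 to 3. The light subunit NEFL was found in 66.5% of the cells at a summed 60.9 CPM, and Spearman's rho of NEFM and NEFL over the 176 cells was 0.468, given as a description of cells of 1 library that differ in depth.

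**Figure D5:**
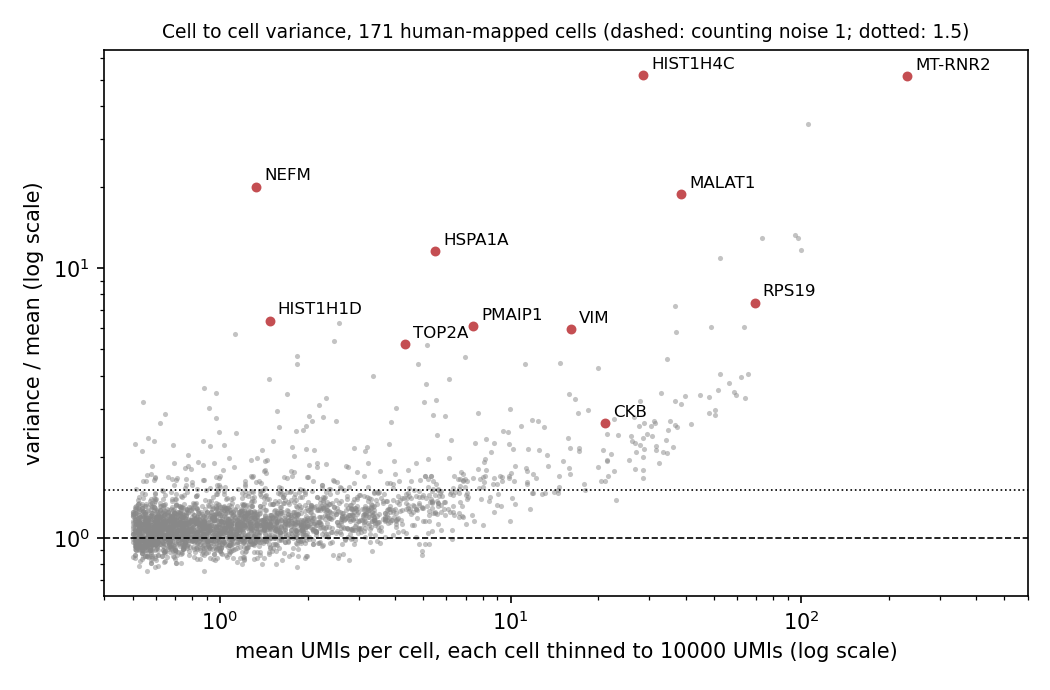
Each point is a gene with a mean of at least 0.5 UMI in 171 human-mapped cells thinned to 10000 UMIs, with that mean on the horizontal and the ratio of variance to mean on the vertical axis, both on log scales. Most genes lie near 1, and HIST1H4C (52.1), NEFM (20.1), MALAT1 (18.8) and HSPA1A (11.5) lie far above.

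Human UMIs outside the human-mapped cells were few. The 616 mouse-mapped cells of the control library held 9584 human UMIs, a median of 14 per cell. The genes with most of them were MT-RNR2 with 274 UMIs, MT-ATP6 with 117, MT-CO2 with 96, MT-RNR1 with 96 and EEF1A1 with 80. Scaled in the same way, MT-RNR2 was at 28590 CPM of those human UMIs against 27180 CPM in the members, MT-ATP6 at 12210 against 10010 CPM, MT-CO2 at 10020 against 10220 CPM and EEF1A1 at 8347 against 6373 CPM. The 2 profiles were thus alike in these 4 genes, although MT-RNR2 was at 47170 CPM in the members when each cell counted equally. Other genes differed. MT-CO3 was at 6260 against 10600 CPM, SRSF1 at 6156 against 119 CPM and SOX2 at 4278 against 19.7 CPM. SRSF1 and SOX2 were also among the leading human UMIs of the transplanted libraries, which held no human-mapped cell. Their values are therefore not read as a difference between 2 profiles of human cells. HES4 was at 1043 against 527 CPM, but from 10 UMIs in the mouse-mapped cells, so no difference is read from it. The EGFP and mCherry features of the reference had 0 UMIs in the members, and also made up 0% of the mouse UMIs of the mouse-mapped cells.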

How the data were processed

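Droplet single-cell libraries of mouse trachea (10x Chromium, per the labels' protocols) were read. The deposited matrices hold whole-number UMI counts per feature and cell barcode over human and mouse features, per the file headers. Cell Ranger, STARsolo and Seurat, with the builds GRCm38 and GRCh38, are named in the submitters' processing notes. Which tool made the matrices, how barcodes were called and whether strand was used are not given in the sources used here. No human genome annotation was used here, so genes carry the symbols and identifiers of the files, without coordinates.

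Human UMI counts were summed over the members and scaled to CPM. For clustering, 176 members with at least 500 human genes and at most 20% mitochondrial UMIs were scaled to 10000, log-transformed and reduced to 1000 variable genes and 15 principal components (15 neighbours, Leiden resolution 0.5, seed 1). Doublet calling was not run. Mixed cells and the tenth of members with most UMIs were instead left out as alternatives. The variance step and the clustering were run on simulated data with large set differences. That run does not test the clusters or the variance limit used here.

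Named genes were the 15 highest, all markers of the leading list (general epithelium aside), up to 4 present members and the defining markers at 0 of other lists, 8 per cluster, the 15 largest variance ratios and the 5 highest in mouse-mapped cells. XIST and related genes, Y-linked genes, variable receptor genes and genes whose presence differs between people were excluded, and a few genes that the rule names are not reported here. The members and lists were chosen with earlier results of these data known. Tools were Python 3.11.15, scanpy 1.11.5, anndata 0.12.19, leidenalg 0.10.2, numpy 2.4.6, scipy 1.17.1, pandas 2.3.3 and matplotlib 3.10.9.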

Additional observations from a re-analysis of the deposited data

Results flagged for a closer look

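The human-mapped cells also held 151542 UMIs of mouse features, which no comparison above used. A mouse gene model without a gene name took 35.5% of them, against 6.47% of the mouse UMIs of the mouse-mapped cells. The mouse secretory genes Scgb1a1, Bpifa1 and Scgb3a2 took 4.57%, 2.27% and 1.03%, against 14.7%, 5.14% and 2.48%. The 2 kinds of member differed in this. In the 15 members with 90% human UMIs or less there were 74532 mouse UMIs, of which that gene model took 6.32% and Scgb1a1 6.88%. In the other 177 members there were 77010, of which the gene model took 63.7% and Scgb1a1 2.32%. Mouse UMIs per member ran from 18 to 14223 with a median of 357. Where these UMIs came from was not tested, be it doublets, free RNA or another source. UMIs on mouse features of the members are therefore not read as mouse transcripts.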

How the results depend on the processing

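The number of members was 192 with a threshold of 10% human UMIs and 177 with 90%. The level that counts as present mattered most. At 10 CPM 8351 human genes and 5 general epithelial markers were present, and at 100 CPM 1565 human genes, 11 S phase genes and 1 mesenchymal marker. Requiring 5 genes of the G2 and M phase list left 92.3% of members with them, and thinning to 20000 UMIs gave 99.4%. Thinning to 20000 UMIs gave 783 genes with variance past 1.5 times the mean, among more genes tested. For the other lists, 286 of 336 counts stayed within 1.5 times. The alveolar type 1 list went from 1 to 4 of 12 when mitochondrial and ribosomal protein genes were left out of the scaling, the largest share of the cell type lists there. It had 5 of 12 at 10 CPM, as did the lung and thyroid progenitor list. Levels of 171 named genes were compared under 5 alternatives. Of these 855 comparisons, 508 stayed within the counting interval of the gene and 347 fell outside it. The intervals thus do not cover the choice of processing. In 2 of the 855 the level moved by over 1.5 times. These were MT-RNR2 at 47170 CPM and MT-RNR1 at 21310 CPM, when cells were weighted equally. The others moved by less when mixed, mitochondria-rich or deepest members were left out or when cells were weighted equally. Mitochondrial and ribosomal protein genes held 9.93% and 22.5% of the members' human UMIs. Leaving them out of the scaling raised every level by the same factor. That factor is under 1.5, so no gene could pass the limit there. With it the number of human genes present rose from 2986 to 4152. No paired analysis was possible because the members come from 1 library. Genes under 0.336 CPM lie below what 3 UMIs over all members would give.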

Other observations

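One of the 176 clustered cells lacked several abundant transcripts. From its 23893 human UMIs, 315 genes were due at least 10 UMIs each at the mean level of the clustered cells, and 19 of these had none. In no other clustered cell were more than 6 such genes without a UMI. PTMA had 0 UMIs where 118 were due, VIM 0 where 38.6 were due, NCL 0 where 29.5 were due and HSPD1 0 where 27.25 were due. TMSB10, ATP5MC3, HSPE1, PPA1, HSPA1A, MZT2B, SRSF7, SSB, XRCC5, ATP5MD, PGAM1, COX5B, CALM2, DDX21 and VDAC2 were the others, of which HSPA1A was at 0 in many other cells too. The cell also lacked KRT8 and KRT18, for which 9.64 and 7.53 UMIs were due. Other genes were found in it. EEF1A1 had 123 UMIs where 153.8 were due, MALAT1 128 where 93.4 were due and HIST1H4C 144 where 66.3 were due. HES4 had 15 where 12.8 were due, CDKN2A 12 where 13.3 were due and CKB 14 where 50.4 were due. Its mitochondrial share was 8.19% and its human share of UMIs 98.8%. The cell was singled out after its values were seen.

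The 4 libraries of transplanted tracheas held between 2196 and 2703 human UMIs each, a median of 1 per cell, with no human-mapped cell. SRSF1 led the named genes in all 4 with 100 to 153 UMIs. SOX2, with 67 to 107 UMIs, was among the first 4 in each. Mitochondrially encoded human genes, which made up 9.93% of the members' human UMIs, had 0, 0, 1 and 1 UMIs in these libraries. The mouse-mapped cells of the control library held 919 such UMIs.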
